A study of Homo sapiens with 6 samples.

Results

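The N-Myc peaks examined lay inside super-enhancers of the human neuroblastoma line CHP-134 and were not shared with JMJD6, a Jumonji domain protein. A peak is a stretch of DNA enriched in chromatin immunoprecipitation followed by sequencing (ChIP-Seq). Members were chosen by their presence in the peak lists, as autosomal N-Myc peaks that were absent from the list of peaks shared with JMJD6 and that overlapped a super-enhancer of the N-Myc list by at least 1 bp. This gave 375 members of 10172 N-Myc peaks in all, or 3.82% of the 9804 autosomal N-Myc-only peaks. The JMJD6 list was much shorter, with 561 peaks, so absence from the shared list does not show that JMJD6 was absent. The experiment had 2 groups of 3 samples, all from CHP-134 cells with no further treatment named in the labels. In the N-Myc group (antibody sc-53993) chromatin was cross-linked with formaldehyde alone, and in the JMJD6 group (antibody ab64575) with DSG before formaldehyde. Antibody and cross-linking thus differed together between the groups and cannot be told apart. The labels do not say whether the 3 samples of a group came from separate cultures, and CHP-134 is 1 cell line. Each listed peak had been found in all 3 samples of its antibody, and the lists give only positions. The depth and the height of a peak are therefore unknown, and a replicate error cannot be given. Confidence intervals of shares are exact (Clopper-Pearson) at 95% and reflect nothing but the number of peaks counted. Coordinates are 1-based on hg19 (GRCh37).

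N-Myc is a basic helix-loop-helix leucine zipper transcription factor that binds DNA as a dimer with MAX, with the E-box CACGTG as its preferred site. Super-enhancers are long clusters of enhancers with exceptionally high histone H3 lysine 27 acetylation (H3K27ac), and in neuroblastoma cells many of them lie at genes for the transcription factors that hold the cell in its lineage. Adrenergic neuroblastoma cells are maintained by factors such as HAND2 and GATA3, whereas mesenchymal-state cells depend on factors such as PRRX1 and the AP-1 proteins. The MYCN gene is amplified in CHP-134 cells.

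The sequences of 9 members show where the E-box stood at super-enhancers named for lineage regulators. Each is a stretch of at most 100 bases of the reference plus strand, 5′ to 3′, around the E-box nearest the peak midpoint, with CACGTG in capitals. The 3 HAND2 sequences come from 3 of its super-enhancers, with their middles at 7.18, -500.7 and -676.6 kb from its start site.
HAND2 at 7.18 kb, chr4:174444184-174444283: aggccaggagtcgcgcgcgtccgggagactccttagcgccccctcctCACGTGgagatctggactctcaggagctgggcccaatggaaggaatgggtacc
HAND2 at -500.7 kb, chr4:174930266-174930365: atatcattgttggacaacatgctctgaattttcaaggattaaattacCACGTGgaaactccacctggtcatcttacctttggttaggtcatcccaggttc
HAND2 at -676.6 kb, chr4:175114183-175114282: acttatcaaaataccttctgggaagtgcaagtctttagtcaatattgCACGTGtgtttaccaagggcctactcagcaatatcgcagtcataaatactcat
SATB1, chr3:18487324-18487423: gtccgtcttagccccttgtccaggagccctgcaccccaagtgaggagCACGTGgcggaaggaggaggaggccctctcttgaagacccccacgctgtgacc
SOX4, chr6:20707447-20707546: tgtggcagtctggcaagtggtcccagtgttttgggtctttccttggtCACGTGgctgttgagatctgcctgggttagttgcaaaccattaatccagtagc
MYCN and DDX1, chr2:15755464-15755563: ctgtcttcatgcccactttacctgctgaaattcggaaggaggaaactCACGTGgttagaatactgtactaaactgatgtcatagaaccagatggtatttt
TWIST1 and HDAC9, chr7:18899769-18899868: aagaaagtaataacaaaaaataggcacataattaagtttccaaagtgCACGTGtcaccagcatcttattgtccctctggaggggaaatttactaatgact
TWIST1, chr7:19151609-19151687: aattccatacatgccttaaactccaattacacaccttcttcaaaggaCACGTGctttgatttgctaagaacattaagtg
NFIA, chr1:61338547-61338646: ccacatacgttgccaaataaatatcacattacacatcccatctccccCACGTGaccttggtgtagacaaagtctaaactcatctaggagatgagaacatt
In 6 of the 9 the E-box had cytosine on its 5′ side or guanine on its 3′ side. Such forms were common in distal members as a whole. Of 72 occurrences there, 13 were CCACGTGG, 11 CCACGTGC, 10 CCACGTGA and 9 ACACGTGG, each counted with its reverse complement. The count of 6 is therefore not read as a trait of these sites. The stretch at MYCN and DDX1 lay in an intron of DDX1 and just outside the listed edge of the super-enhancer, since only 39.9% of that peak overlapped it. The stretch named for SOX4 lay in an intron of CDKAL1, and the middle of its region was at -896.0 kb from SOX4. The stretches at TWIST1 and HDAC9 and at NFIA lay in introns of HDAC9 and NFIA.

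Genes that maintain adrenergic neuroblastoma cells were named for 20 super-enhancers, which held 37 members. The gene names are the nearest genes given in the super-enhancer list, with the distance from the gene's start site to the middle of the region. A region can therefore contain the start site. Of 36 adrenergic regulators looked up, 13 were named for a super-enhancer with a member. Among all 19222 autosomal coding genes of the annotation, 260 were named, or 1.35%. For typical enhancers with an N-Myc-only peak, 6117 of these genes (31.8%) and 25 of the 36 adrenergic regulators (69.4%) were named. Such enhancers also named 14 of 33 mesenchymal-state, 14 of 23 neurogenic and 16 of 27 synaptic genes of the lists below. The same held for 14 of 20 axon guidance, 22 of 35 chromatin and 11 of 19 G1 and mitotic genes. Being named is not particular to super-enhancers. Every list had more genes named for typical enhancers, but so had the coding genes as a whole (6117 against 260), so these higher counts say nothing about the lists. The gene lists were put together with these names already known, so no list share is read against either background.

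HAND2, a basic helix-loop-helix factor of sympathetic neurons, was named for 4 super-enhancers with 9 members, all distal to listed promoters. The region with its middle at 7.18 kb contained the HAND2 start site and held a single member of 932 bp, chr4:174443583-174444514, with 1 CACGTG. The regions at -500.7, -676.6 and -748.9 kb held 3, 2 and 3 members, all of 293 to 643 bp. The first and the second of these had 1 CACGTG each and the third had none. The HAND2 regions between -500.7 and -748.9 kb were closer to CEP44, which is also named for them, than to HAND2.

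GATA3, a zinc finger factor of the same circuit, had a super-enhancer of 19.6 kb with 1 member, chr10:8093901-8094686. That member was 786 bp wide, overlapped the listed promoter of the antisense gene GATA3-AS1, and had no CACGTG. MYCN itself was named for 3 super-enhancers with 4 members. The one at the gene was 1.51 kb long, the shortest of all, and its member chr2:16082023-16082438 overlapped an exon of MYCN and the promoter of the antisense gene MYCNOS. The other 2, at -345.3 and -323.8 kb, lay at DDX1, an RNA helicase gene that is often amplified together with MYCN. Copy number there was not measured in these files, and its part in the peaks was not tested.

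**Figure D1:**
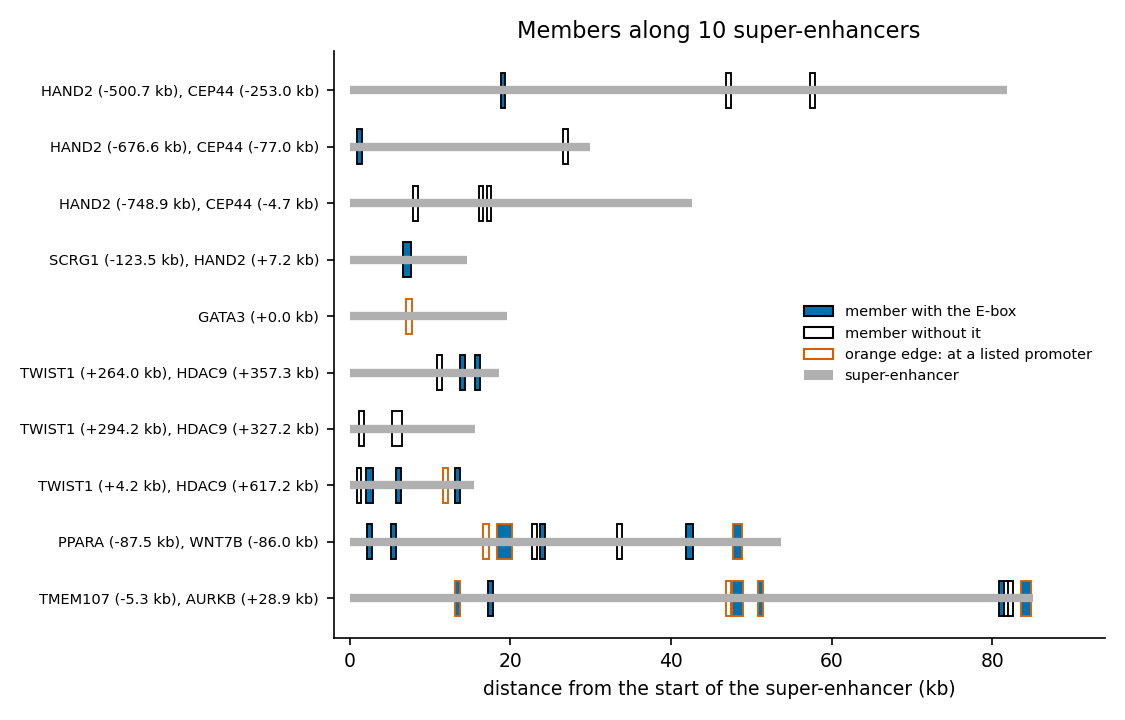
Members along the 10 super-enhancers named for HAND2, GATA3, TWIST1, PPARA or AURKB, drawn from the start of each region in kb. At the left is the distance from each named gene's start site to the middle of the region. Boxes are members (narrow ones are widened to 0.6 kb), blue where the peak holds the E-box and edged in orange where it overlaps a listed N-Myc promoter. The E-box is in 3 of the 9 HAND2 members and in 6 of 9 members in each of the bottom 2 regions.

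Further adrenergic regulators had 1 to 3 members per super-enhancer. They were EYA1, KLF7, SATB1, SOX4, DACH1, MEIS1, TLX2, TCF4 and ID3. The SOX4 region was at -896.0 kb and closer to CDKAL1, which is also named for it. The regions of TCF4 and DACH1 were at 324.4 and 251.1 kb, and an EYA1 region was at 317.6 kb. SATB1, a chromatin organiser, had 2 members at its own listed promoters, each with 1 CACGTG. DACH1, a cofactor of developmental programs, had 3 members of 319 to 729 bp in its introns, none with CACGTG. ID3, an inhibitor of basic helix-loop-helix factors, had a single member of 1312 bp, chr1:23881597-23882908, which was among the 5 widest of all and had no CACGTG. At MEIS1, a homeodomain factor, the single member overlapped the gene's own promoter. The marker genes ISL1 and TBX2 were not named for any super-enhancer with a member.

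Of 33 mesenchymal-state regulators, 7 were named, for 9 super-enhancers with 25 members. TWIST1, a basic helix-loop-helix factor better known from mesenchymal cells and also known to cooperate with N-Myc, accounted for 3 of the super-enhancers and 10 members, the highest number for any gene of the lists together with HDAC9 and MAB21L1. The region at the gene was 15.5 kb long and held 5 members, 3 of them with CACGTG. It had 3.23 members per 10 kb, the highest density among super-enhancers with at least 3 members. One of the 5, chr7:19157175-19157385, covered the TWIST1 promoter, was the narrowest of all 375 members at 211 bp, and had no CACGTG. The regions at 264 and 294 kb lay inside HDAC9, a histone deacetylase gene, and held 3 and 2 members. HDAC9 is the other gene named for all 3 regions, so the 10 members of TWIST1 and of HDAC9 are the same peaks.

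NFIA and NFIB, nuclear factor I genes of neural and glial development, had 3 and 4 members in introns, of which 1 had CACGTG. TGFB2, a ligand of the TGF-beta pathway, had 4 members, 1 of them at its promoter and with CACGTG. SOX9, EBF1 and TGFBR2 had 1 or 2 members each. Of these 3, EBF1 was nearest to the middle of its region, at 7.82 kb. The regions of SOX9 and TGFBR2 were at 661.8 and -968.7 kb, and closer to SLC39A11 and RBMS3, which are also named for them. PRRX1, SNAI2, FOSL1 and RUNX2 were not named.

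Of 23 neurogenic and pan-neuronal regulators, 8 were named, for 12 super-enhancers with 30 members. MAB21L1, a gene of eye and neural development nested in NBEA, was named for 4 super-enhancers with 10 members. All 10 lay in the gene body of NBEA, a synaptic trafficking gene, and 1 of the 10 had CACGTG. MAB21L2, its paralogue nested in LRBA, had 6 members in a region of 32.0 kb, again with 1 CACGTG. At MYT1L, a zinc finger factor that keeps neuronal identity, 3 members lay in 14.2 kb, 2 of them at listed promoters of the gene. Members also overlapped a listed promoter of MYT1, ELAVL4 and RUNX1T1, which encode a zinc finger factor, a neuronal RNA-binding protein and a transcriptional corepressor. NEUROD1, a proneural basic helix-loop-helix gene, was not named for any super-enhancer of the N-Myc list. However, a member of 869 bp with 1 CACGTG, chr2:182544926-182545794, overlapped the listed NEUROD1 promoter. Its super-enhancer was assigned to CERKL and ITGA4, so the gene names in the list miss promoters that a region itself contains.

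Of 27 neuronal ion channel and synaptic genes, 12 were named, for 14 super-enhancers with 29 members. These are not a separate set. The regions of NBEA and DCLK1 were those of MAB21L1, and the KCNH8 region was that of SATB1, so their members are counted in 2 lists. The regions of KCNH7, KCNH8, CAMK2D and DCLK1 were at -887.4, -716.0, 695.2 and 654.6 kb. They were closer to FIGN, SATB1, ANK2 and MAB21L1, which are also named for them. ANK2, an ankyrin that anchors membrane proteins, had 5 members in 2 super-enhancers, all in the gene and none with CACGTG. MAP1B, a neuronal microtubule protein, was named for a region with 4 members at 189 kb, all inside the neighbouring gene MRPS27 and 2 of them with CACGTG. DLG4, which encodes a postsynaptic scaffold protein, had 3 members and no CACGTG, and 1 of the 3 lay at the promoter of GABARAP, an autophagy gene. Of 20 axon guidance receptors, ROBO1 and UNC5C were named. ROBO1 had 2 super-enhancers of 53.7 and 51.0 kb within the gene, with 3 members each and no CACGTG in any of the 6.

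Of 35 chromatin remodellers and histone modifiers, 12 were named, for 15 super-enhancers with 32 members, 12 of which had CACGTG. The 3 super-enhancers of HDAC9 were those of TWIST1. Their 10 members, 5 of them with CACGTG, are thus also counted among the mesenchymal-state regulators. The KAT6B region was at -400.3 kb and closer to ADK, which is also named for it. CBX5, which encodes heterochromatin protein HP1 alpha, had 3 members, all at listed promoters and all with CACGTG. A pair of them, chr12:54673863-54674286 and chr12:54674375-54675308, lay at the promoters of CBX5 and HNRNPA1, a splicing factor gene beside it. CHD2, a chromatin remodeller, had 2 super-enhancers with 1 member each and no CACGTG. Further genes of this list that were named were CHD9, KAT6B, KAT7, KMT2E, CBX1, PHC2, PCGF2, JARID2 and HDAC9, with 1 to 5 members per super-enhancer.

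Of 19 G1 and mitotic regulators, 5 were named, among them AURKB, whose region is described with the largest ones. Their 5 super-enhancers held 18 members, of which 10 had CACGTG. RCC1, the nucleotide exchange factor of Ran, had 4 members in 14.7 kb, all within the gene and 3 with CACGTG. CDK6, a G1 cyclin-dependent kinase, had 2 members of 404 and 643 bp in its introns with no CACGTG, the nearer of them 67.8 kb from its start site. CDKN1B, which encodes the inhibitor p27, had 1 member, at the listed promoter of its neighbour APOLD1. RBL2, a retinoblastoma family member, shared its region with CHD9. E2F2 and JMJD6 were not named for any super-enhancer of the N-Myc list. The authors' paper describes a super-enhancer at the MXRA7 and JMJD6 locus from H3K27ac in CHP-134 cells. Super-enhancers outside the N-Myc list were not searched here. The member nearest to E2F2 was the wide one at ID3, -24.5 kb from the E2F2 start site. The member nearest to JMJD6 was 168 kb away, at the promoter of SNHG16.

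The members were spread over 157 of the 161 autosomal super-enhancers in the N-Myc list. The authors selected that list for overlap with N-Myc peaks, so this wide spread follows from the selection. Super-enhancers outside the list were not examined. Of the 157, 56 had 1 member, 38 had 2, 32 had 3, 20 had 4 and 11 had at least 5. The 11 held 67 members. Super-enhancers were 1.51 to 91.9 kb long with a median of 28.3 kb, and longer ones tended to have more members (Spearman's rho 0.42 over 157 super-enhancers, a description only). Members covered 4.15% of the super-enhancer bases, with 0.741 members per 10 kb. In typical enhancers with an N-Myc-only peak, such peaks covered 12.1% of the bases, with 2.31 per 10 kb. These typical enhancers were shorter, with a median of 2.53 kb, and 83.9% of the 4403 had a single such peak, against 35.7% of the super-enhancers. The number of peaks is what chose the members, so these values are a description.

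**Figure D2:**
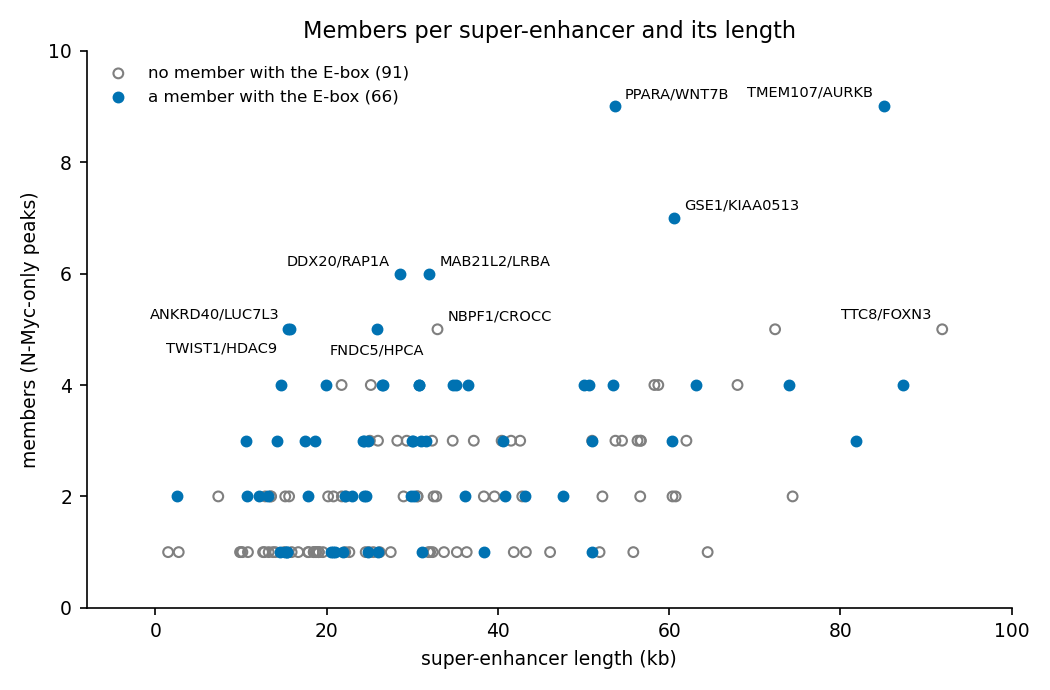
Number of members in each of 157 super-enhancers against its length in kb, with filled points where a member holds the E-box and open points where none does. Of the 11 regions with at least 5 members, 10 are labelled with their nearest genes, and 66 of the 157 points are filled.

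Both super-enhancers with 9 members were rich in promoters and E-boxes. The first, of 53.6 kb on chromosome 22, is named for PPARA and WNT7B but spans MIRLET7BHG, the host gene of let-7 family microRNAs, whose body holds 6 of the members. Its members covered 13.6% of the region, 6 had CACGTG, and chr22:46450554-46452406, at the PRR34 promoter, was the widest of all members at 1853 bp. The second, of 85.1 kb on chromosome 17, is named for TMEM107 and AURKB, which encodes a mitotic kinase. Its 5 promoter members lay at PER1, a circadian repressor, MIR4521, BORCS6 and LINC00324, and it also held 1 peak shared with JMJD6. It had 8 CACGTG in members, the most of any super-enhancer.

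Other regions with many members ranged from none to 3 CACGTG. GSE1, a gene for a coregulator protein, held 11 members in its introns in 2 super-enhancers, 7 of them in a region of 60.6 kb with 2 CACGTG. The 6 members between DDX20 and RAP1A included 3 at promoters and 2 with CACGTG. The region at CROCC, a gene for the ciliary rootlet protein, and that at TTC8, a Bardet-Biedl syndrome gene, had 5 members each and no CACGTG, and all 5 at CROCC lay within 1 Mb of an assembly gap. The region at HPCA, which encodes the neuronal calcium sensor hippocalcin, had 5 distal members, 3 of them with CACGTG. At ANKRD40 and LUC7L3, 4 of 5 members lay at listed promoters in 15.8 kb. Regions with many E-boxes for few members were those at SMUG1 and CBX5 and at RCC1, with 4 CACGTG each, at MAZ with 3, and at EGFLAM and SKIDA1, each with 2 in a single member. A region on chromosome 15 with no gene named had 4 members and 3 CACGTG, and its widest member of 1558 bp lay within 1 Mb of an assembly gap. In all, 33 members (8.80%) lay that near a gap of at least 50 kb, against 11.0% of N-Myc-only peaks in typical enhancers. ST7 had 3 members in 10.6 kb, 2.83 per 10 kb.

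Members were 211 to 1853 bp wide with a median of 511 bp. Distal members, those that overlapped no listed N-Myc promoter, had a median of 505 bp, against 467 bp for distal peaks in typical enhancers and 363 bp for peaks outside every listed region. Distal refers to the promoter list alone, since 45 of the 292 distal members lay within 1 kb of an annotated start site. Neighbouring members of 1 super-enhancer lay 0.462 to 53.5 kb apart, with a median of 7.38 kb over 218 gaps. With each super-enhancer divided into 5 equal stretches, the outer stretches held 24.3% and 26.1% of the members and the middle stretch 14.1%. Only 7 members crossed the edge of their super-enhancer, and the one least inside, at ASIC4 and GMPPA, overlapped by 14 bp. The N-Myc-only peaks nearest outside lay 44 bp from the region at IQSEC1 and 198 bp from the region at MYCN, and 4 in all lay within 1 kb of an edge.

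Members were at promoters less often than N-Myc-only peaks in typical enhancers. Of the 375, 83 overlapped a listed N-Myc promoter (22.1%, 95% CI 18.03 to 26.7%), against 2730 of 5293 (51.6%, 95% CI 50.2 to 52.9%). The odds ratio was 0.267 (95% CI 0.208 to 0.343, two-sided Fisher's exact test, adjusted p = 4.23e-29 over 3 comparisons of position and composition). By the paper's methods, H3K27ac peaks within 1 kb of start sites were removed and the remaining peaks joined for both kinds of enhancer. A region of either kind could therefore contain promoters. The regions differed in length, with a median of 28.3 kb for the 157 super-enhancers and 2.53 kb for the typical enhancers with an N-Myc-only peak. The part of length in the promoter shares was not tested. Of the 157, 58 held a promoter member and 99 held distal members alone. Peaks of 1 super-enhancer share a locus, and the tests here take each peak as a unit. With the widest peak per region alone, the odds ratio was 0.338 and the adjusted p from Fisher's exact test was 1.03e-09.

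Among the 89 promoter symbols at members were MALAT1, a nuclear non-coding RNA gene, SNHG1 together with SLC3A2, an amino acid transporter subunit gene, and SNHG16. Members at SNHG1, SNHG16 and WDR74, a ribosome biogenesis gene, had no CACGTG. A member of 1188 bp with 1 CACGTG lay at CALR, the gene of the chaperone calreticulin. These genes are single examples chosen after their values were seen. Of the promoter members, 47.0% had a CpG-rich sequence (GC over 50% and observed to expected CpG ratio over 0.6), against 72.3% of promoter peaks in typical enhancers, which was not tested.

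Distal members lay in introns more often than distal peaks in typical enhancers. Of 292 distal members, 213 had their midpoint in an intron (72.9%, 95% CI 67.5 to 78.0%), 24 in an exon and 55 between genes. In typical enhancers 1603 of 2563 were intronic (62.5%, 95% CI 60.6 to 64.4%), and the odds ratio was 1.61 (95% CI 1.23 to 2.12, Fisher's exact test, adjusted p = 6.08e-04). CpG-rich sequence was found in 19 distal members (6.51%) and in 216 distal typical-enhancer peaks (8.43%), with an odds ratio of 0.756 (95% CI 0.465 to 1.23, Fisher's exact test, adjusted p = 0.311). The genes with the most members in their bodies were GSE1 with 11, NBEA with 10, and LRBA, MIRLET7BHG and ROBO1 with 6 each. By annotated start sites of coding and long non-coding genes, 33.1% of all members lay within 1 kb, 33.1% at 1 to 10 kb, 30.7% at 10 to 100 kb and 3.20% farther away.

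The canonical E-box CACGTG was less frequent in distal members than in the other distal peaks. It occurred in 64 of 292 distal members (21.9%, 95% CI 17.3 to 27.1%) and in 784 of 2563 distal peaks of typical enhancers (30.6%, 95% CI 28.8 to 32.4%). The odds ratio was 0.637 (95% CI 0.477 to 0.851, two-sided Fisher's exact test, adjusted p = 0.00278 over 3 E-box comparisons). Of 3448 N-Myc-only peaks outside every listed region, 1191 had it (34.5%, 95% CI 33.0 to 36.2%), which gave an odds ratio of 0.532 (95% CI 0.400 to 0.708, Fisher's exact test, adjusted p = 2.29e-05). The difference from typical enhancers did not pass with the widest peak per region alone (odds ratio 0.696, adjusted p = 0.125) or with the wider 50% of peaks (odds ratio 0.689, adjusted p = 0.0509), both by Fisher's exact test. The difference from the peaks outside every list passed in both. Distal members were also wider than the peaks they were compared with. In the 200 bp around the midpoint, an equal length for all, CACGTG was in 13.7% of distal members, 19.9% of distal typical-enhancer peaks and 28.8% of peaks outside every list.

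At promoters no difference was detected. Of the 83 promoter members, 35 had CACGTG (42.2%, 95% CI 31.4 to 53.5%), against 1028 of 2730 promoter peaks in typical enhancers (37.7%, 95% CI 35.8 to 39.5%). The odds ratio was 1.21 with a 95% CI of 0.776 to 1.88 (Fisher's exact test, adjusted p = 0.422).

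**Figure D3:**
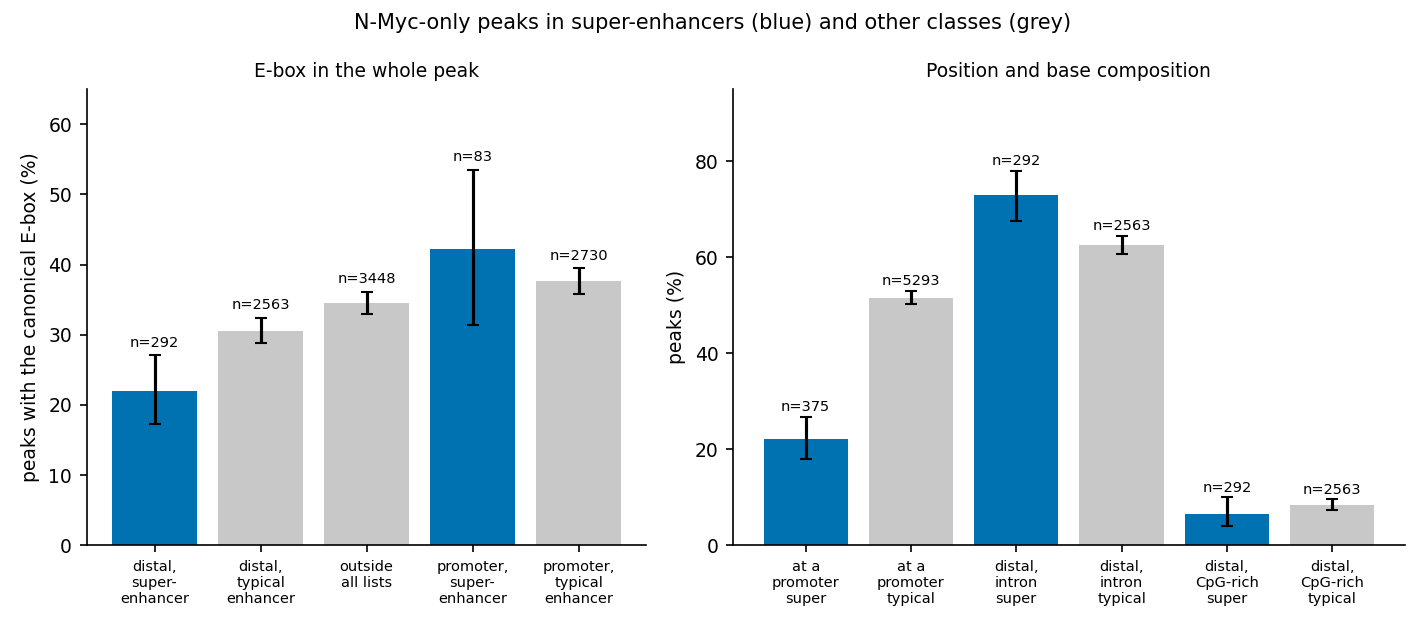
Left, share of N-Myc-only peaks with CACGTG by class. Right, share at a listed promoter, and of distal peaks the share in an intron or CpG-rich. Bars start at 0, error bars are exact 95% confidence intervals, n is the number of peaks, and blue bars are members. The distal members have the lowest E-box share at 21.9%, and the promoter share of 22.1% compares with 51.6% in typical enhancers.

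Among members with an E-box, the distance of the site from the peak midpoint was described without a test. The median distance was 62.5 bp in the 64 distal members and 71.5 bp in the 35 promoter members. It was within 50 bp in 26 of the 64 (40.6%) and in 10 of the 35 (28.6%). In distal typical-enhancer peaks the median was 61.2 bp and 44.3% were within 50 bp, and in peaks outside every list 32.5 bp and 65.6%. In all, 113 CACGTG lay in 99 members, with 14 members holding 2 and none holding more. By flanking base, CCACGTGG was the most frequent form in distal members, with 13 of 72 occurrences (18.1%), against 171 of 917 (18.6%) in distal typical-enhancer peaks. There CCACGTGC was the most frequent, with 199 of 917 (21.7%), against 11 of 72 (15.3%) in distal members.

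**Figure D4:**
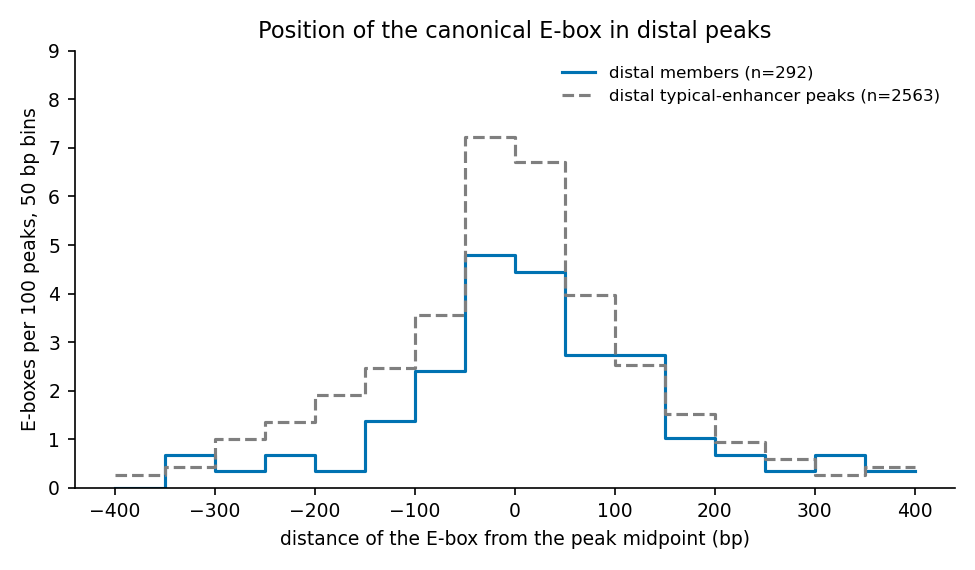
Number of CACGTG per 100 peaks in bins of 50 bp by distance from the peak midpoint, for 292 distal members (solid) and 2563 distal peaks in typical enhancers (dashed). Members rise to 4.79 per 100 peaks in the bin just before the midpoint, and typical-enhancer peaks to 7.22.

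Within the super-enhancers, E-boxes were denser in members than in the rest of the sequence when all regions were pooled. Members held 113 CACGTG in 210 kb (0.537 per kb), and the rest of the same 157 super-enhancers outside every N-Myc peak held 419 in 4851 kb (0.0864 per kb), a ratio of 6.22. Members held the E-box in 66 of 157 super-enhancers (42.0%). In the other 91 the listed N-Myc-only peaks contained none, and in 30 of these the rest of the region had none either. Compared region by region, members were denser in 66 super-enhancers, less dense in 61 and equal in 30 (two-sided exact sign test, p = 0.723). All of the 61 had no CACGTG in members. A short part without a site counts as lower by its length alone, so the sign test cannot decide the question. The pooled ratio is given without a test.

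Other transcription factor motifs were searched in distal members on both strands, with those of distal typical-enhancer peaks for comparison. The 18 motifs were the canonical E-box CACGTG, the non-canonical E-box CACGCG together with CACATG, the basic helix-loop-helix E-boxes CAGCTG together with CAGATG as well as CACCTG besides CATATG, and then AGATAA for GATA factors, TAATTA for homeodomain factors, TGANTCA for AP-1, TGACGTCA for CREB, CCGGAA for ETS factors, GGGCGG for SP and KLF factors, CCAAT for NF-Y, TTGGCA for NFI factors, CATTCC for TEAD, CAAGGTCA for ESRR and NR5A receptors, and ACAATG for SOX factors. CACGTG was the only one of the 18 that differed (5.56% of the motifs tested, adjusted p = 0.0334 over the 18, Fisher's exact test). CAGATG was the most common motif, in 57.9% of distal members and 62.1% of typical-enhancer peaks. For the motif classes of the adrenergic factors no difference passed the test. AGATAA was in 29.8% of distal members against 27.7% (odds ratio 1.11, adjusted p = 0.692), and TAATTA in 21.9% against 18.2% (odds ratio 1.26, adjusted p = 0.473), both by Fisher's exact test. CAAGGTCA was in 17 distal members (5.82%) against 3.43%, an odds ratio of 1.74 with an adjusted p of 0.425 by Fisher's exact test.

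The ETS motif CCGGAA changed most with the window. It was in 13 of 292 distal members (4.45%) and in 7.45% of distal typical-enhancer peaks over the whole peak (adjusted p = 0.425, Fisher's exact test). In the 200 bp around the midpoint it was in 0 of 292, which allows a share of up to 1.03% by the limit of 3 counts (1.26% by the upper Clopper-Pearson bound), and in 85 of 2563 (3.32%), with an adjusted p of 0.00301 over the 18 motifs. In that window CACGTG no longer passed over the 18 motifs (Fisher's exact test, adjusted p = 0.0875). A scan of all 2080 6-mers, each counted with its reverse complement, in the same 200 bp found none that differed after adjustment (0% of the 6-mers, Fisher's exact test). The smallest adjusted p was 0.262, and 132 had an unadjusted p under 0.05.

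Of 380 N-Myc peaks in autosomal super-enhancers, 5 were shared with JMJD6 (1.32%), beside 215 of all 10019 autosomal N-Myc peaks (2.15%). This share was used to choose the members and was not tested. The 7 super-enhancers listed as bound by both proteins included 6 that held 26 members. The 4 autosomal super-enhancers without a member were at DHRS12 and WDFY2, NBAS, ANK2 and LARP7, and PAQR3 and NAA11. The one at NBAS held a shared peak, and the other 3 held no N-Myc peak by this overlap.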

How the data were processed

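ChIP-Seq was performed in CHP-134 cells with 3 N-Myc and 3 JMJD6 samples, grouped by the antibody in the labels. Per the submitters' processing notes, the authors used BWA, SAMtools and bedtools, and they called peaks against input with MACS2 (2.1.1.20160309, q-value under 0.05), keeping peaks found in all 3 replicates. Promoters were 1 kb on each side of RefSeq start sites, and super-enhancers came from ROSE on H3K27ac ChIP-Seq. The N-Myc lists of promoters, enhancers and super-enhancers were selected by the authors for overlap with N-Myc peaks. The nearest genes came from GREAT. Of 12 deposited lists 8 were used, and they hold positions in bp with no count, coverage or p-value. The deposited coordinates are hg19, and the centre of 4060 of 4608 autosomal promoters (88.1%) lay within 100 bp of a start site of that symbol in GENCODE 44 lifted to GRCh37.

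Members, gene lists and tests were chosen with earlier results of these data known. Shares were compared by Fisher's exact tests with Benjamini-Hochberg adjustment within each family, and odds ratios have Wald intervals. No conclusion was drawn from a planned sign test of E-box density within super-enhancers, because it depends on the length of the parts compared. Alternatives covered the overlap, the MYCN region (chromosome 2, 14 to 18 Mb), assembly gaps, peak width, 1 peak per region, motif windows of 200 and 100 bp, the definition of distal, and logistic regression with width and GC and errors clustered by region. Procedures were tested on simulated data. Named items were MYCN, JMJD6, E2F2, HAND2, GATA3, TWIST1 and CDK6, listed genes, the 10 super-enhancers with the most members and the 10 with the most CACGTG, the 5 densest of those with at least 3 members, and the 5 widest members. Some items that this rule covers are not reported here. Python 3.11.15, pandas 2.3.3, SciPy 1.17.1, statsmodels 0.14.6, pysam 0.24.0 and matplotlib 3.10.9 were used.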

Additional observations from a re-analysis of the deposited data

How the results depend on the processing

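No paired analysis was possible because the lists hold no value per sample, and for the same reason no replicate could be left out. Depth was not analysed here. The lower E-box share of distal members against distal typical-enhancer peaks had an adjusted p over 0.05 with the wider 50% of peaks (odds ratio 0.689), with 1 peak per region (0.696) and in the 100 bp around the midpoint (0.648). The last setting, and that of annotated start sites with 200 bp, were chosen after seeing the data. The latter kept the call (0.545). At promoters the E-box odds ratio turned to 0.902 in 100 bp, where neither value passed the threshold. The comparison with peaks outside every list, and the promoter, intron and CpG comparisons, kept their direction and their side of the threshold under every alternative run. Of the motifs that did not pass, CACCTG turned to 1.33 and GGGCGG to 1.11 in 200 bp, AGATAA to 0.947 in 200 bp and 0.946 in logistic regression, and CATTCC to 0.781 and 0.965. The count of motifs that differed stayed at 1 in both alternatives, but in 200 bp it was CCGGAA in place of CACGTG. No 6-mer passed in any setting, so logistic regression of called 6-mers was not run. With distal members alone the pooled E-box ratio within super-enhancers was 5.24. By region, distal members were denser in 50 and less dense in 60 (two-sided exact sign test, p = 0.391). The causes of these changes were not tested.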
